A study of Homo sapiens with 3 samples.

Results

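The clustered protocadherins are a family of cell-surface adhesion proteins encoded side by side on chromosome 5. Every protein-coding gene on that chromosome whose name began with PCDHA, PCDHB or PCDHG was taken as a member, which gave 47 of the 29960 genes in the table: 10 PCDHA, 16 PCDHB and 21 PCDHG genes. They were measured by RNA sequencing of poly-A RNA from the established human bladder cancer line 5637. The parental 5637 cells carried the genotype label WT, and the resistant cells the label Gemcitabine Resistant. The resistant line was made by exposing 5637 cells to gemcitabine, a nucleoside analog that blocks DNA synthesis. All libraries were labelled as untreated and shared the same medium, RPMI with 10% serum. By the study's methods each library came from a single-cell clone, with 3 clones per group, and here 1 parental and 2 resistant libraries could be matched to a label.

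Clustered protocadherins are best known in neurons, where each cell expresses a small, partly random set of them and so carries a surface identity that neighbouring cells can read. Each PCDHA and PCDHG gene supplies its own variable first exon, with its own promoter, which is spliced to constant exons at the end of the cluster that all genes of the cluster share, whereas each PCDHB gene is a single exon. Promoter choice is tied to a short conserved promoter element, to binding of CTCF and looping by cohesin, and to DNA methylation. The last genes of the PCDHA and PCDHG clusters, called C-type, are regulated differently from the other isoforms, and loss or methylation of clustered protocadherins is often described in tumors. Isoform choice was therefore compared gene by gene between the 3 libraries.

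In the files' hg19 coordinates the members covered chromosome 5 from 140165876 to 140892546, with PCDHA first, PCDHB next and PCDHG last, all on the plus strand. In GENCODE release 29, 15 of 15 matched PCDHB genes had 1 exon. RefSeq promoter windows of 300 bases (250 before the start site and 50 after it, GRCh38.p14) were found for 42 of the 47 members. All 42 held the 4 letters CGCT, the core of the conserved element, but so did 70.0% of all 35093 promoters when both strands were searched. The longer forms were more restricted. ATGTCGCT was found in 7 of 10 PCDHA promoters against 0.234% of all promoters. GGTGGCGCT, which contains CGCT, was found in 12 of 13 PCDHB promoters against 0.502%. GNCGCTGT was found in 16 of 19 PCDHG promoters against 4.34%, both strands being searched in each case. It was not confined to PCDHG, being also found in 3 of 10 PCDHA and 1 of 13 PCDHB promoters. The letters of these 3 longer forms were read from the same promoters, so the match to the members is a description.

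The windows below show the stretch around the element for the genes on which the results turn, from RefSeq (GRCh38.p14, plus strand, written 5′ to 3′), with the CGCT core in capitals. They are the leading isoforms that did not pass the test given below (PCDHB8, PCDHGB1, PCDHGC3) and those with far fewer reads in both resistant libraries (PCDHB13, PCDHB14, PCDHGA7, PCDHGB6, PCDHGC4), with PCDHA12 as the leading PCDHA gene.
PCDHA12, chr5:140875224-140875283: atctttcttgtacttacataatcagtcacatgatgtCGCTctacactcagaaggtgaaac
PCDHB8, chr5:141177757-141177816: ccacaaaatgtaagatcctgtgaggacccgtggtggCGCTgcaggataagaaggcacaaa
PCDHB13, chr5:141213845-141213904: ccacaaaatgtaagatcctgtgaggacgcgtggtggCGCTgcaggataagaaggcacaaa
PCDHB14, chr5:141223243-141223302: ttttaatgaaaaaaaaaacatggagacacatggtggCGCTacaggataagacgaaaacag
PCDHGB1, chr5:141350005-141350064: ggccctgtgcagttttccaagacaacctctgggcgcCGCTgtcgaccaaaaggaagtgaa
PCDHGA7, chr5:141382629-141382688: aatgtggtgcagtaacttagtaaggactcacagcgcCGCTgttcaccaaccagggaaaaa
PCDHGB6, chr5:141407904-141407963: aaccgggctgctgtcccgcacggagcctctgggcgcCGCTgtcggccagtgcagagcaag
PCDHGC3, chr5:141475860-141475919: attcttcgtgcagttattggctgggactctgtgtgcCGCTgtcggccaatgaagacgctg
PCDHGC4, chr5:141484932-141484991: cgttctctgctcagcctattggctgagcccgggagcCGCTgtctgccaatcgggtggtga
The windows of PCDHB8 and PCDHB13 differed at 1 of 60 positions, C28G, counted from 1 at the first base of the window with the PCDHB8 base first. PCDHGB1 and PCDHGB6 differed at 28 of 60 positions.

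The libraries held 14475531 (parental 1), 15836788 (resistant 1) and 17461941 (resistant 2) reads on genes. Members took 3008, 2937 and 3080 of these reads, or 0.0208%, 0.0185% and 0.0176%. The epithelial genes of the label were present in all 3 libraries, with KRT19 at 4309, 3591 and 4779 CPM (reads scaled to library size with TMM factors) and EPCAM at 285, 338 and 291 CPM. Of 12 markers of urothelial epithelium, 3 keratin genes fell by the test given below (KRT5, KRT13 and KRT17, KRT5 from 272 CPM to 9.79 and 13.8). Of 8 neuronal markers 7 were in the table, and their summed level was 43.9, 34.1 and 24.7 CPM with no call. Of 8 fibroblast markers 7 were in the table, with summed levels of 173, 156 and 148 CPM that came almost wholly from COL1A1 and COL1A2, while LUM had 0 reads and COL3A1 at most 0.115 CPM. The endothelial list (3 of 4 in the table) summed to 0.426, 0.612 and 2.01 CPM, and the 4 leukocyte markers to 0.568, 0.795 and 0.173 CPM. What the other lists have to do with the protocadherin values was not tested.

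A member was counted as detected with more than 3 reads, a floor that corresponds to 0.213, 0.184 and 0.173 CPM in parental 1, resistant 1 and resistant 2. By this measure 27 of 47 members were detected in parental 1, 22 in resistant 1 and 33 in resistant 2. In all 3 libraries 20 members were detected, and 12 members in none of them. PCDHG was the most widely detected cluster, with 15, 14 and 20 of its 21 genes, and PCDHA the least, with 2, 0 and 3 of its 10. Members of 1 cluster had very different counts although the PCDHA and PCDHG genes share their constant exons: PCDHA5 and PCDHA6 had 0 reads in every library while PCDHA12 had 59 in resistant 2. Reads on the shared exons were therefore not given to every gene of a cluster. How they were assigned is not given in the sources used here, and the interval of each value below covers counting error only.

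**Figure D1:**
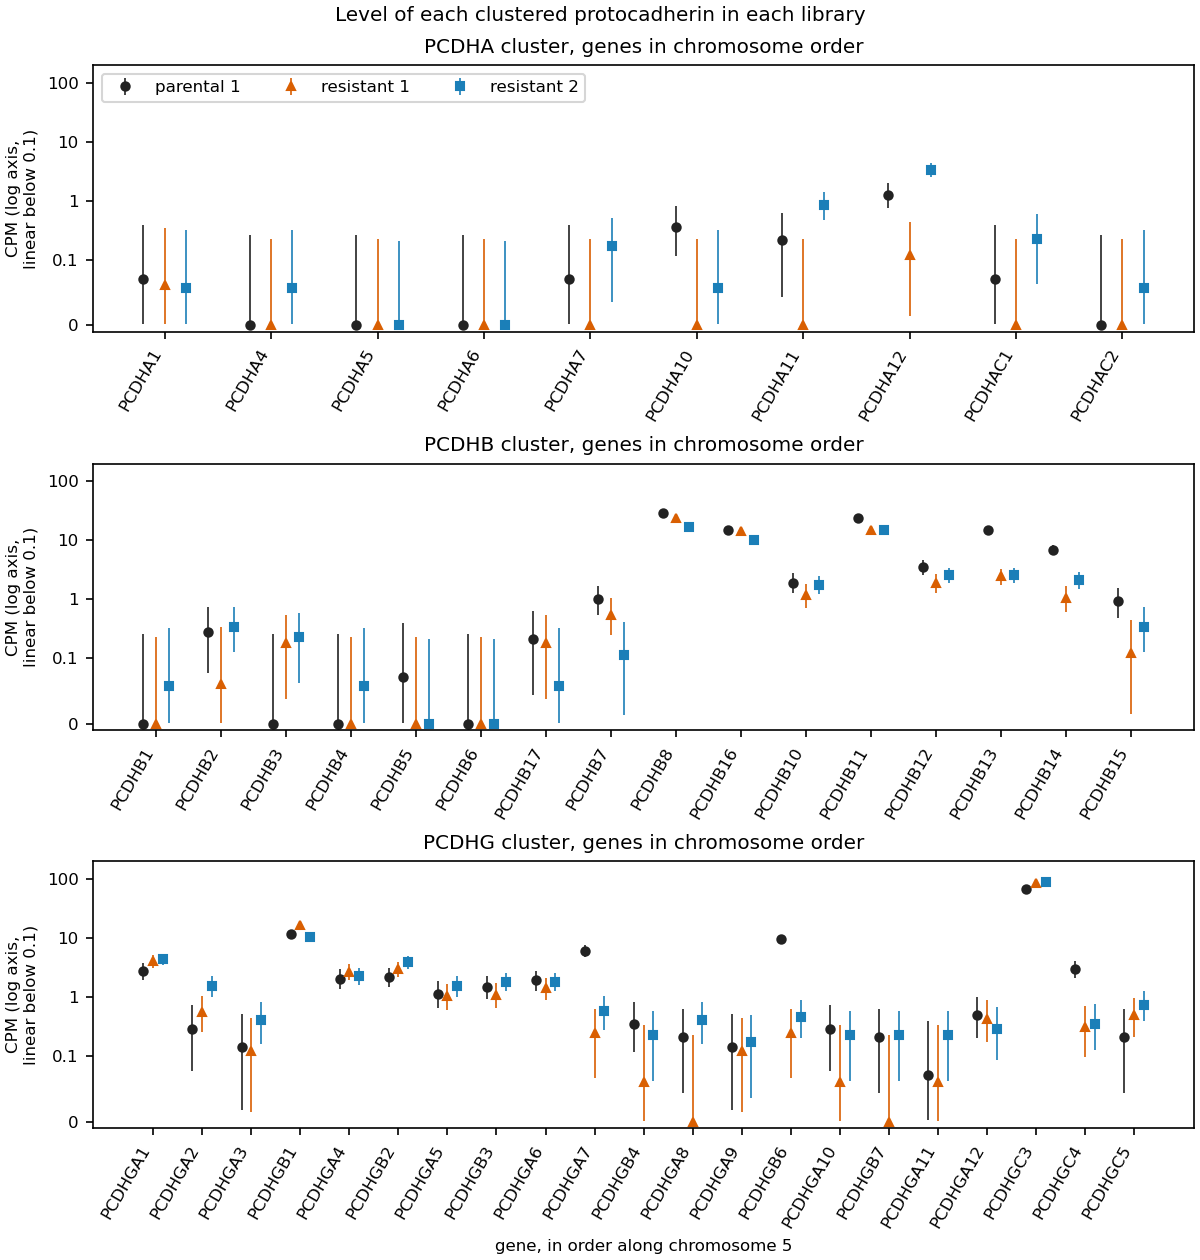
Level of each of the 47 clustered protocadherins in CPM (log axis, linear below 0.1) in parental 1 (circles), resistant 1 (triangles) and resistant 2 (squares), genes in chromosome order within each cluster, with exact Poisson 95% intervals. PCDHGC3 is the highest gene in all 3 libraries, and PCDHGA7, PCDHGB6 and PCDHGC4 have parental values far above both resistant values.

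Gene counts were compared between the resistant and the parental libraries with edgeR's quasi-likelihood test, with Benjamini-Hochberg adjustment over the 16428 genes that had at least 15 reads in total. Of the members, 25 had enough reads to be tested. The test rests on 1 parental and 2 resistant libraries, so the parental library is assumed to vary as the resistant ones do. The only spread within a group is that between the 2 resistant libraries, which leaves 1 residual degree of freedom. edgeR moderates this spread over all genes (median prior degrees of freedom 12.5), so each p-value rests largely on the spread of other genes. The p-values measure no spread between parental clones. With 1 parental library, a difference of that clone and a difference of the lines cannot be told apart. At an adjusted p under 0.05, 3 members fell (PCDHB13, PCDHGA7 and PCDHGB6) and 0 rose, against 0.907% of all tested genes called lower and 0.572% called higher (1.48% in either direction). At an unadjusted p under 0.05 the counts were 5 lower and 0 higher, PCDHB14 and PCDHGC4 being added, where 5.02% of all genes were lower and 5.11% higher. DESeq2 called the same 3 members, where it called 0.767% of all genes lower. With a minimum of 60 reads in total, 1 member was called (PCDHGB6; 0.384% of all genes lower), PCDHB13 and PCDHGA7 then having edgeR adjusted p values of 0.0695 and 0.0646. Together these 5 genes held 573 of the members' reads in parental 1, or 19.0%, but 70 in resistant 1 (2.38%) and 106 in resistant 2 (3.44%). The 5 genes were picked for low values in these same libraries, so the lower share was fixed in advance.

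Both resistant libraries lay below the parental library for 14 of the 25 tested members and above it for 6, against 34.5% and 35.2% of all tested genes, and the groups overlapped for the other 5. In PCDHB, 9 of 9 tested genes were lower in both resistant libraries, while the PCDHG genes of A and B type split into 4 lower, 4 higher and 3 between. The median log2 difference was -0.69 for the tested PCDHB genes, 0.18 for the PCDHG genes of A and B type and 0.35 for PCDHG C-type, beside 0.03 over all tested genes. The region as a whole also had low values. The other 686 tested genes of chromosome 5 had a median of -0.28, with both resistant libraries below the parental one in 56.3%. Of 20 genes that flank or lie between the clusters on 5q31, 19 were tested, with a median of -0.57, and 16 of them were lower in both resistant libraries, though 0 were called by edgeR or DESeq2 and 4 had an unadjusted p under 0.05. DIAPH1, the formin gene just past the PCDHG cluster, had 467, 351 and 307 CPM, and HDAC3, a histone deacetylase gene beyond it, 54.6, 32.9 and 36.9 CPM. The part of this regional shift in the PCDHB values was not tested.

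**Figure D2:**
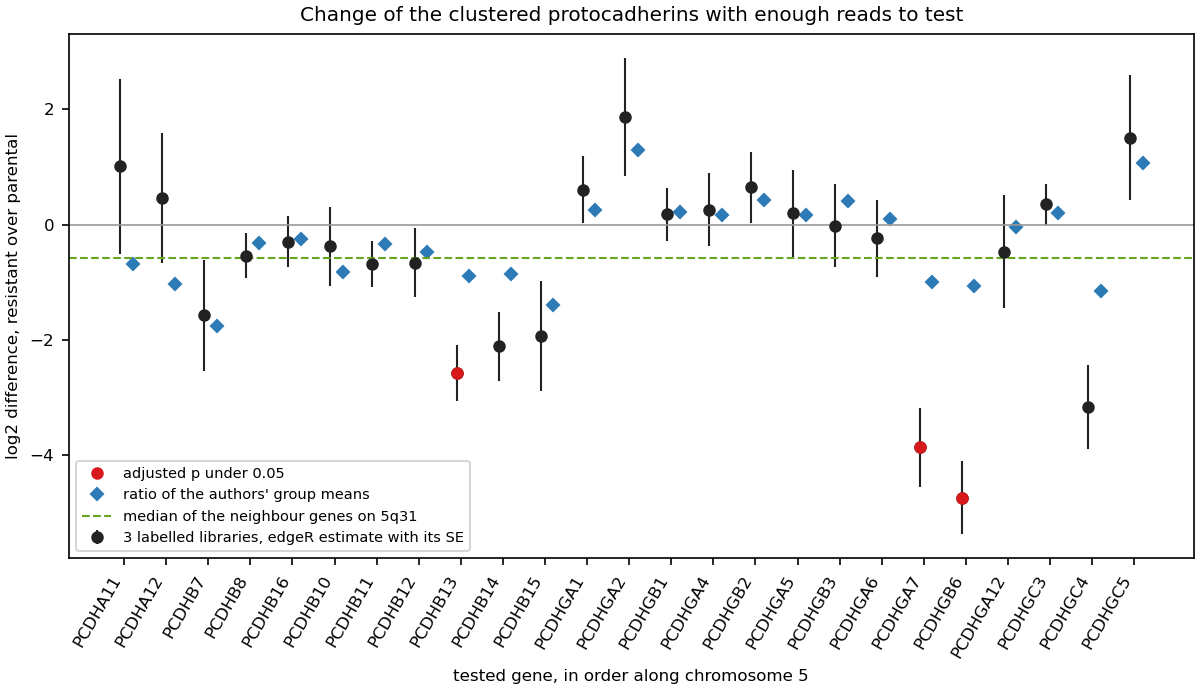
Log2 difference of resistant over parental for the 25 tested members in chromosome order: circles are edgeR estimates from the 3 labelled libraries with their SE (red where the adjusted p was under 0.05), diamonds are ratios of the authors' group means, and the dashed line is the 5q31 neighbours' median of -0.57. PCDHB13, PCDHGA7 and PCDHGB6 are marked in red, and PCDHGB6 is the lowest at -4.74.

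PCDHGC3 was the most abundant clustered protocadherin in every library. It is the first of the C-type genes of the PCDHG cluster and is expressed in many tissues outside the brain. It had 965 reads in parental 1, 1412 in resistant 1 and 1532 in resistant 2, or 68.5, 86.4 and 88.1 CPM. Both resistant values were above the parental one, but the log2 difference of 0.35 ± 0.36 (SE) did not pass the edgeR test (adjusted p = 0.882). Per length, in the authors' FPKM, PCDHGC3 had 14.2, 18.9 and 18.6, with PCDHB8 next in each library (10.6, 8.97 and 6.21). PCDHGC3 took 60.5% of the PCDHG reads in parental 1, 72.5% in resistant 1 and 73.4% in resistant 2.

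The neighbouring C-type gene PCDHGC4 went the other way. Its reads were 42 in parental 1 against 5 in resistant 1 and 6 in resistant 2 (2.98, 0.306 and 0.345 CPM), and the groups did not overlap. The log2 difference was -3.16 ± 0.73 (SE), at the edge of the edgeR threshold (adjusted p = 0.0511), and the adjusted p ran from 0.0013 without a filter on low counts to 0.434 with DESeq2. PCDHGC5, the last gene of the cluster, had 3, 8 and 13 reads and a log2 difference of 1.51 ± 1.08 (adjusted p = 0.751). The C-type genes of PCDHA were near the floor, with 1, 0 and 4 reads for PCDHAC1 and 0, 0 and 1 read for PCDHAC2. Among the 5 C-type genes, reads were thus almost confined to PCDHGC3 in these libraries, with 95.5%, 99.1% and 98.8% of the PCDHG C-type reads.

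PCDHGB6, an isoform gene in the downstream part of the PCDHG cluster (hg19, chromosome 5, 140787770 to 140892546), was the member with the lowest log2 difference. It had 136 reads in parental 1, 4 in resistant 1 and 8 in resistant 2, or 9.66, 0.245 and 0.46 CPM. The parental level was far above both resistant levels, which lay close to the floor. The log2 difference was -4.74 ± 0.63 (SE; edgeR adjusted p = 0.00165). PCDHGB6 held 23.2% (95% Clopper-Pearson interval 19.9 to 26.9) of the reads of PCDHG A and B type in parental 1. In resistant 1 that share was 0.765% (0.209 to 1.95) and in resistant 2 it was 1.49% (0.647 to 2.92).

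PCDHGA7, which lies upstream of PCDHGB6 (hg19, chromosome 5, 140762467 to 140892546), had the same order of libraries. Its reads were 86, 4 and 10, or 6.11, 0.245 and 0.575 CPM, with a log2 difference of -3.86 ± 0.68 (SE; edgeR adjusted p = 0.011). Its share of the reads of PCDHG A and B type was 14.7% (11.9 to 17.8) in parental 1, 0.765% (0.209 to 1.95) in resistant 1 and 1.87% (0.898 to 3.40) in resistant 2. The 3 member genes between PCDHGA7 and PCDHGB6 (PCDHGB4, PCDHGA8 and PCDHGA9) had few reads in any library, 10, 3 and 14 in sum. The high parental values were therefore those of single genes within a quiet stretch. From PCDHGA7 to PCDHGA12, a run of 9 genes chosen after its values were seen, the reads were 247, 20 and 49, or 42.2%, 3.82% and 9.14% of the A and B type. No gene of this run had more than 7 reads in resistant 1 or more than 10 in resistant 2.

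The upstream PCDHG genes had more reads in sum in both resistant libraries, which were also the deeper ones. From PCDHGA1 to PCDHGA6 there were 338, 503 and 487 reads, not scaled to library size, in parental 1, resistant 1 and resistant 2. This run of 9 genes was also set after its values were seen. PCDHGB1 led this run with 169, 275 and 179 reads (12.0, 16.8 and 10.3 CPM), and its resistant values lay on both sides of the parental one. PCDHGB1 differed between the resistant libraries, resistant 2 being at 0.612 of resistant 1 (95% interval 0.504 to 0.741). Its log2 difference of 0.18 ± 0.46 did not pass the test (edgeR adjusted p = 0.975). PCDHGA1 had 39, 66 and 76 reads (log2 difference 0.60 ± 0.58), PCDHGB2 31, 49 and 68 (0.65 ± 0.62) and PCDHGA4 29, 44 and 39 (0.26 ± 0.64). In these 3 genes both resistant libraries lay above the parental one in CPM, and none passed the test (edgeR adjusted p from 0.862 to 0.975). Another 3 tested genes of the run did not share this order. PCDHGA6 had 27, 23 and 32 reads, with both resistant libraries below the parental one in CPM (log2 difference -0.24 ± 0.67). In PCDHGB3 (21, 18 and 32 reads, -0.02 ± 0.72) and PCDHGA5 (16, 17 and 27 reads, 0.19 ± 0.75) the parental value lay between the resistant ones. These 3 genes, named after their values were seen, did not pass the test either. PCDHGA2, also singled out after its values were seen, was higher in both resistant libraries, with 4, 9 and 27 reads and a log2 difference of 1.87 ± 1.03 (edgeR adjusted p = 0.611).

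Summed over the 18 genes, PCDHG A and B type had 41.5 CPM (95% Poisson interval 38.24 to 45.05) in parental 1, 32.0 (29.3 to 34.9) in resistant 1 and 30.8 (28.3 to 33.5) in resistant 2. Isoform choice within this sum was described by the effective number of isoforms, the exponential of the Shannon entropy of the shares, which equals the number of genes when all shares are equal. It was 8.09 in parental 1, 5.34 in resistant 1 and 9.05 in resistant 2, so the resistant libraries lay on both sides of the parental one. PCDHGB1 alone accounted for 28.9%, 52.6% and 33.4% of the reads. The share profile in common, the sum over genes of the smaller of the paired shares, was 61.03% between parental 1 and resistant 1 and 65.0% between parental 1 and resistant 2. Between the resistant libraries it was 79.3%.

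**Figure D3:**
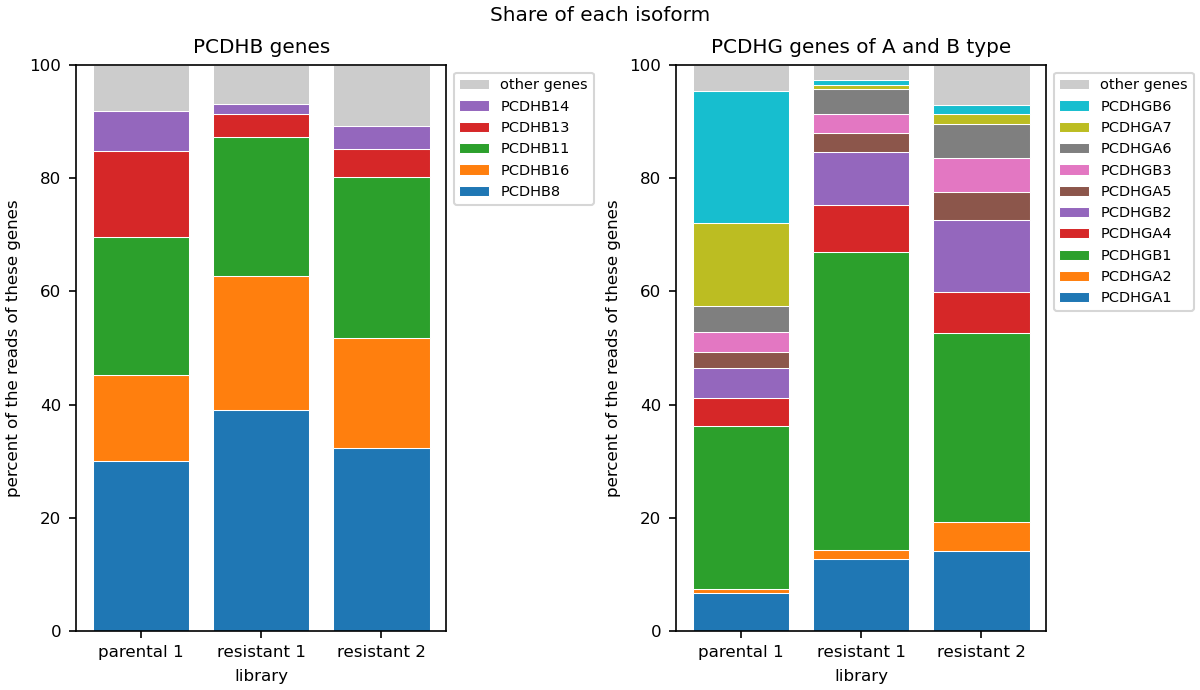
Stacked bars of the percent of reads held by each gene in each of the 3 libraries, for PCDHB (left) and PCDHG of A and B type (right), with genes under 5% in every library pooled in grey. In parental 1 PCDHGB6 and PCDHGA7 hold 23.2% and 14.7% of the A and B type reads and are nearly absent from both resistant bars, while PCDHGB1 takes 52.6% in resistant 1.

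PCDHB13 was the PCDHB gene that passed the test (hg19, chromosome 5, 140593509 to 140596993, a single exon). It had 212 reads in parental 1, 40 in resistant 1 and 45 in resistant 2, or 15.1, 2.45 and 2.59 CPM. The resistant libraries were close to each other and well below the parental library. The log2 difference was -2.58 ± 0.48 (SE; edgeR adjusted p = 0.0149). PCDHB8 had 415, 385 and 294 reads (29.5, 23.6 and 16.9 CPM) and a log2 difference of -0.54 ± 0.39 (edgeR adjusted p = 0.751). Its 60-base window around the core differs from that of PCDHB13 by the single C28G given above. The rest of the promoters was not compared. The transcripts of PCDHB8 and PCDHB13 also share sequence, with 534 stretches of 100 bases in common, and 70.1% and 84.9% of their stretches were found in the transcripts of no other gene. How reads from shared stretches were counted is not stated, so part of each count may belong to the other gene.

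PCDHB14, directly downstream of PCDHB13 in the table's protein-coding genes, had 97, 17 and 37 reads (6.89, 1.04 and 2.13 CPM). Both resistant values were below the parental one. Its log2 difference of -2.11 ± 0.60 had an unadjusted p of 0.00347 and an edgeR adjusted p of 0.14. PCDHB15, named after its values were seen because it closes the cluster, had 13, 2 and 6 reads and a log2 difference of -1.93 ± 0.96 (edgeR adjusted p = 0.54). These last 3 PCDHB genes held 23.3% of the cluster's reads in parental 1, 5.98% in resistant 1 and 9.69% in resistant 2. This run was also set after its values were seen, and PCDHB13 alone gave 212 of its 322 reads in parental 1. Among the pseudogenes of the same stretch, PCDHB18 had 4, 1 and 0 reads and PCDHB19P 9, 0 and 0, too few to test.

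The middle of the PCDHB cluster carried most of its reads in all 3 libraries. PCDHB11 had 337, 243 and 259 reads (23.9, 14.9 and 14.9 CPM), with a log2 difference of -0.69 ± 0.39 (edgeR adjusted p = 0.634). PCDHB16 had 211, 233 and 176 reads (14.98, 14.3 and 10.1 CPM; log2 difference -0.30 ± 0.44), and PCDHB12 had 50, 31 and 45 (-0.66 ± 0.60). In each of these genes the resistant values lay below the parental value in CPM without passing the test. The first 7 genes of the cluster, from PCDHB1 to PCDHB17, were quiet, with 8, 7 and 13 reads in sum and no gene above 6 reads.

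Summed over its 16 genes, PCDHB had 98.3 CPM (93.2 to 104) in parental 1, 60.3 (56.6 to 64.2) in resistant 1 and 52.2 (48.9 to 55.7) in resistant 2. The resistant sums were 61.4% and 53.1% of the parental sum. The effective number of isoforms was 5.98, 4.65 and 5.53, with PCDHB8 the leading gene in each library at 30.0%, 39.0% and 32.4% of the reads. The share profile in common with parental 1 was 81.9% for resistant 1 and 85.5% for resistant 2, and 88.2% between the resistant libraries. The balance of the clusters moved with these sums. PCDHB took 46.0% of all member reads in parental 1 and 33.6% and 29.5% in the resistant libraries, whereas PCDHG C-type took 33.6%, 48.5% and 50.4%.

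The PCDHA cluster was low and differed most between the resistant libraries. It had 29 reads in parental 1, 3 in resistant 1 and 85 in resistant 2, or 2.06 CPM (1.38 to 2.96), 0.184 (0.0378 to 0.536) and 4.89 (3.90 to 6.04). The parental sum lay between the resistant sums and the 3 intervals did not overlap. PCDHA12 was the leading gene with 18, 2 and 59 reads (1.28, 0.122 and 3.39 CPM), and resistant 2 was 27.7 times resistant 1 (95% interval 7.35 to 234). Its log2 difference of 0.46 ± 1.13 did not pass the test (edgeR adjusted p = 0.974). PCDHA11 had 3, 0 and 15 reads and a log2 difference of 1.01 ± 1.52 (edgeR adjusted p = 0.941). PCDHA10 was the only PCDHA gene besides PCDHA12 detected in parental 1, with 5, 0 and 1 reads. PCDHA7 had 1, 0 and 3 reads and PCDHA1 had 1 in each library, at or under the floor of 3.

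The table also holds the authors' mean of each group, in normalized counts, which include libraries that were not used here. For the 5 members with the lowest p these means gave a smaller difference than the labelled libraries. The sizes given above are therefore those of the labelled libraries and not of the whole groups. In all 5 the authors' resistant mean exceeded the reads of both labelled resistant libraries, as in PCDHGB6 with 58.6 against 4 and 8. The resistant signal not used here was therefore higher in these genes, and a fall in every resistant clone is not shown. The authors' mean of PCDHGB6 was 123 in the parental and 58.6 in the resistant group, or 47.5% of parental, whereas resistant 1 and resistant 2 were at 2.53% and 4.76% of parental 1. PCDHGA7 stood at 49.4% by the authors' means (68.3 and 33.7) against 4.01% and 9.42%. PCDHB13 stood at 53.4% (211 and 113) against 16.3% and 17.2%. PCDHB14 and PCDHGC4 stood at 54.6% and 43.6% by the authors' means, with 15.1% and 30.9%, and 10.3% and 11.6%, in the labelled libraries. All 5 ratios were below 1 on both measures, and in each the ratio of the means lay above both labelled resistant libraries. The authors' means also contain the labelled libraries, whose low resistant values lower the resistant means. The shared sign is therefore not independent evidence, and a ratio below 1 does not show a fall in the other resistant clones. Of the 149 genes called lower over the whole table, 115 (77.2%) had a ratio of means above both. The median log2 ratio of means was -2.52 for those 149 genes and -0.997 for the 5 members, whose medians from the labelled libraries were -3.75 and -3.16.

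For PCDHA12 the authors' means had the opposite order to the estimate from the labelled libraries, with 39.7 in the parental and 19.0 in the resistant group. The PCDHB sum by the authors' means was 72.5% of parental, the PCDHG A and B type sum 95.7% and the PCDHG C-type sum 112%. In the labelled libraries the A and B type sum was at 77.0% and 74.2%, and the C-type sum at 122% and 124%. The PCDHA sum was 49.4% by the authors' means, against 8.91% and 237%.

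**Figure D4:**
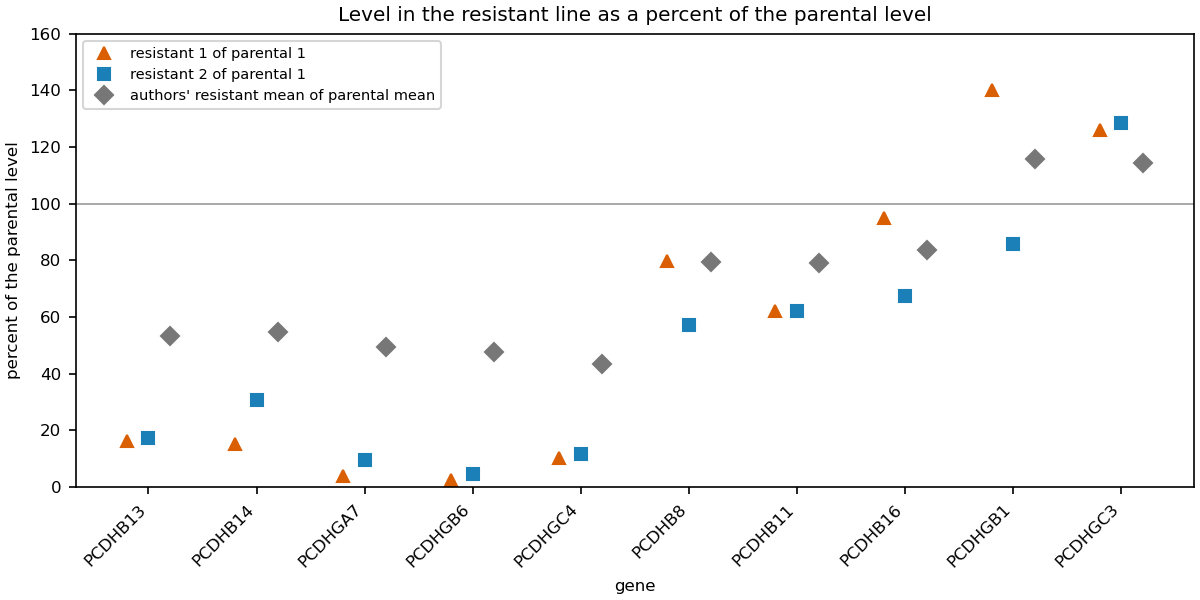
Level as a percent of the parental level for 10 named members: resistant 1 (triangles) and resistant 2 (squares) over parental 1, and the authors' resistant mean over their parental mean (diamonds), with a line at 100. For the 5 genes on the left the authors' means lie between 43.6% and 54.6%, above both labelled resistant libraries.

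Genes that act on promoter choice in the clusters were taken as a list of 27, of which 26 were in the table and 25 were tested. With edgeR or DESeq2, 0 were called in either direction, and the list had 17 negative and 8 positive log2 differences with a median of -0.27. The list held 1 gene with an unadjusted p under 0.05. It was TET1, which encodes an enzyme that oxidizes methylated cytosine, with 6.46, 2.51 and 1.96 CPM (log2 difference -1.53 ± 0.55, edgeR adjusted p = 0.306). CTCF, which encodes the DNA-binding protein that joins protocadherin promoters to their enhancers, had 136, 104 and 69.0 CPM (-0.65 ± 0.37, adjusted p = 0.633). SMCHD1, a chromatin protein gene known for silencing at these clusters, had 106, 117 and 91.3 CPM, and DNMT3B, a de novo DNA methyltransferase gene, 17.6, 12.3 and 10.7 CPM. Of 25 genes for partners and processing enzymes of protocadherins, such as the kinase genes PTK2 and PTK2B and the protease gene ADAM10, 22 were tested and 0 were called by edgeR or DESeq2, with a median of -0.20. At an unadjusted p under 0.05 the partners held FMNL1, a formin gene, with 14.6, 33.9 and 61.9 CPM (1.71 ± 0.46, adjusted p = 0.106), and FMNL2, its paralog (-0.77 ± 0.35, adjusted p = 0.485). TET1, CTCF, SMCHD1, DNMT3B and the partner genes named here were picked for their known roles or after their values were seen.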

How the data were processed

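RNA from 3 labelled libraries (1 parental, 2 resistant) was analysed. Base calling used CASAVA 1.8 and the genome build was hg19 per the submitters' processing notes. The aligner, the counter and the treatment of multi-mapped reads are not given in the sources used here. The deposited table holds raw read counts per gene and FPKM, which the authors scaled by gene length and library total. Recomputing the FPKM from the counts gave the deposited values. It also holds the authors' group means, a normalized signal that pools libraries not used here. Its columns of fold changes and p-values were not used, nor were 6 per-library columns that match no label.

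CPM used TMM factors (0.973, 1.03 and 0.996). Counts were tested with edgeR 4.0.16 in R 4.3.3 (glmQLFit and glmQLFTest, two-sided, no covariates, genes with at least 15 reads in total, Benjamini-Hochberg over 16428 genes), and the script was tested on simulated data. Alternatives were DESeq2 1.42.0, median-ratio factors, no filter, a minimum of 60 reads, other thresholds, leaving out a resistant library, and ratios of the authors' means with a pseudocount of 1. Shares have exact Clopper-Pearson and CPM exact Poisson 95% intervals, which cover counting error only. The ratio of the resistant libraries has an exact binomial interval. Promoter windows are from RefSeq (GRCh38.p14) and exons from GENCODE release 29, and no coordinates were converted. Members and lists were chosen with earlier results of these data known. Named members were those called, the 6 highest in mean CPM of each cluster, the C-type genes, and those with 3 or fewer reads on one side and 10 or more on the other. Nothing says whether the libraries come from separate cultures beyond the statement that they are clones.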

Additional observations from a re-analysis of the deposited data

How the results depend on the processing

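PCDHB13, PCDHGA7 and PCDHGB6 kept a negative log2 difference under every alternative run. These genes were called for low values in the labelled resistant libraries. Every alternative used labelled libraries again, or the authors' means, which contain them. The kept sign is therefore not independent evidence. By the authors' means the differences of these genes were much smaller than in the labelled libraries. PCDHB14 passed the test without a filter on low counts, and PCDHGC4 without that filter and with median-ratio factors. Among the members named by rule that did not pass, the sign changed for PCDHA11 and PCDHA12 without resistant 2 (-2.90 and -3.08) and by the authors' means (-0.69 and -1.02), and for PCDHGB1 without resistant 1 (-0.22). The number of members called was 3, and was 5 without a filter on low counts, 1 with at least 60 reads in total, 5 at an unadjusted p under 0.05, 4 with median-ratio factors, 4 at an adjusted p under 0.1, and 3 with DESeq2. Over all tested genes the called share was 1.48%, 2.02% without the filter and 0.518% with at least 60 reads. It was 1.63% with median-ratio factors, 2.05% at an adjusted p under 0.1 and 1.5% with DESeq2. At an unadjusted p under 0.05, 5.02% of all tested genes were lower and 5.11% higher. The partner list had 1 call without the filter. Leaving out a resistant library (1 against 1, no test) gave medians from -2.99 to 1.63 for PCDHA, from -0.82 to -0.80 for PCDHB, from -0.12 to 0.12 for PCDHG A and B type and from 0.10 to 0.21 for PCDHG, and summed PCDHA log2 levels from -3.49 to 1.25. The PCDHB median was -0.67 without the filter, -0.65 with at least 60 reads and -0.82 by the authors' means, the PCDHG C-type median 0.19 by those means, and the PCDHG median 0.0505 without the filter. With at least 10 reads for detection, the mean number of isoforms detected in the resistant libraries was 8.0 for PCDHG A and B type, 1.5 for C-type and 9.5 for PCDHG. Summed log2 levels by the authors' means were -0.46 for PCDHB, -0.0636 for PCDHG A and B type, 0.17 for C-type and 0.0916 for PCDHG, and without a scaling factor -0.34, 0.36 and 0.14 for the last 3. The cause of these shifts was not tested. No paired analysis was run, because by the study's account the clones were derived independently and no label pairs a parental with a resistant library. Genes with few reads set the limit of depth: 22 of 47 members could not be tested.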

Other observations

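Protocadherins encoded outside the clusters, at single sites in the genome, were also measured. Of 15 such genes, all present in the table, 9 were tested and 0 were called by edgeR or DESeq2, with 0 at an unadjusted p under 0.05. Their median log2 difference was 0.30, with 3 negative and 6 positive values. PCDH1, a protocadherin of epithelia that lies on chromosome 5 outside the clusters, was the most abundant with 364, 217 and 290 CPM in parental 1, resistant 1 and resistant 2 (log2 difference -0.52 ± 0.37). PCDH7 followed with 47.6, 63.1 and 53.9 CPM. PCDH10 had 15, 46 and 53 reads, both resistant values being higher (1.45 ± 0.69, edgeR adjusted p = 0.509).

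PCDHB9, which the table types as a pseudogene and which was therefore not a member, had more reads than most PCDHB genes, with 144, 72 and 131 (log2 difference -0.77 ± 0.50, edgeR adjusted p = 0.698). The pseudogene PCDHGB8P had 1, 0 and 1 reads.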
